A study of Mus musculus with 12 samples.

Results

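The cells described here are mature Ccr7 dendritic cells of mouse tumours, 580 of 50416 tumour cells that could be assigned to a tumour (1.15%). They were chosen by their own transcript counts: at least 1 unique molecular identifier (UMI, a count of 1 captured RNA molecule) of Ccr7, at least 2 of Fscn1, Ccl22 and Il4i1 together, at least 1 of H2-Ab1, and none of Cd3e and Cd3g. The levels of those 7 genes are therefore given as a description and were not tested. Of the 580 cells, 58 had exactly 1 Ccr7 UMI and 70 had exactly 2 UMIs of Fscn1, Ccl22 and Il4i1 together, so they lay on the edge of the choice. Just outside it, 87 cells had a Ccr7 UMI and a single UMI of the other set, 783 cells had at least 2 UMIs of that set and none of Ccr7, 148 cells failed on H2-Ab1 alone, and 49 cells that passed the rest had a Cd3e or Cd3g UMI.

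Dendritic cells take up antigen in a tissue, and on maturation they switch on the chemokine receptor Ccr7, which leads them towards lymph nodes, together with co-stimulatory molecules that activate T cells. In tumours such mature cells also carry molecules that restrain T cells, such as the ligand PD-L1 (gene Cd274), and they release the chemokines Ccl17 and Ccl22, which attract cells with the receptor Ccr4, regulatory T cells among them. Both conventional lineages, the Xcr1 Clec9a cells that present antigen to CD8 T cells and the Cd209a cells that mainly present to CD4 T cells, can enter this mature state.

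The tumours were grown in mice from 5 cell lines, SCC31, SCC32, SCC35, SCC37 and SCC40, in a series on melanoma rejection. By the authors' sample table, the lines SCC31 and SCC40 are of the rejected kind, whereas the other 3 (SCC32, SCC35, SCC37) are not rejected. Tumours were dissociated at day 6, 10, 16 or 20, each was tagged with its own antibody barcode (hashtag), and live cells were sorted and sequenced with the 10x 5' kit. Each line had 2 tumours per day in a library of its own, and a sixth library, called the mix library here, held a further tumour of each of 3 lines: SCC31 and SCC40 for the days 6 and 10, and SCC35 also for day 20. The strain, sex and age of the mice, and any treatment or genotype, are not given in the labels. Within a line each tumour has its own pair of mouse and cage numbers. Each line stands for 1 cell line, so the 2 rejected and 3 non-rejected lines are the units of any comparison of outcome. Day 20 holds non-rejected lines only, SCC32 and SCC37 were each in 1 library, and in those lines line and library cannot be told apart.

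The 6 libraries held 2366 to 20690 barcodes and 5691826 to 112724631 gene UMIs, and the SCC31 library was the smallest. It gave 13 of the mature cells, with a median of 1193 UMIs each, against 71 to 178 cells in the other libraries. Of 43 tumours, 40 gave at least 20 assigned cells, and each of those 40 held at least 1 mature cell. SCC31 day 10 tumour 2 gave 3 cells and both SCC31 tumours of day 16 gave 0. Of 76648 barcodes, 3464 occurred in more than 1 library, 48 mature cells carried such a barcode, and no barcode was shared by 2 mature cells. In cells with no Ptprc (CD45) UMI, 4 genes of the Y chromosome (Uty, Kdm5d, Eif2s3y, Ddx3y) together gave 12.7 CPM (UMIs scaled to the same total in every library or tumour) in the SCC31 library (5 UMIs, exact 95% Poisson interval 4.14 to 29.7) and 2.98 CPM in the SCC31 tumours of the mix library (6 UMIs, 1.09 to 6.49). These intervals overlap, which does not show that the rates are equal. Because most mature SCC31 cells came from the mix library, the tests of shares and of the mature cells' genes were also run without SCC31. The comparison with macrophages was not. The 5 melanocyte genes Mlana, Pmel, Tyr, Tyrp1 and Dct were each found in at most 0.136% of the cells with no Ptprc UMI.

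The mature cells had a median of 3382.5 UMIs (535 to 31587) and 1281 genes. Their median Ccr7 count was 10 UMIs, with a maximum of 67, and the median sum of Fscn1, Ccl22 and Il4i1 was 9 UMIs, with a maximum of 125. Fscn1, an actin-bundling protein of dendrites, was detected in 77.8% of the cells, Il4i1, an amino acid oxidase that dampens T cells, in 75% and Ccl22 in 72.9%. All 3 genes were present in 254 cells. Of 30 markers listed for mature dendritic cells, 26 of them outside the rule, all 30 were found in at least 1% of the cells and 28 in at least 10%. The bar of 1% does not tell cell types apart, since all 13 listed macrophage genes passed it too. Of those 13, 2 were found in at least 10%. Those the choice did not use included Basp1 in 86.6%, Marcksl1 in 83.8%, Traf1 in 77.8%, Samsn1 in 72.9%, Tbc1d4 in 66.6%, Socs2 in 62.4% and Cacnb3 in 60.9%. Markers outside the rule were thus found as well, but the list was chosen with earlier results of these data known.

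Markers of other cell types were present to different degrees. A UMI of Trac, Trbc1 or Trbc2 (T cells) occurred in 16 cells, after the rule had left out cells with Cd3e or Cd3g. Siglech (plasmacytoid dendritic cells) occurred in none. Of the 10 plasmacytoid genes listed, 2 were at 0 and 3 were found in at least 10% of the mature cells. Their pooled sum was 1048 CPM, against 1266 CPM in Cd209a cells and 1780 CPM in cells with no Ptprc UMI. The complement genes C1qa, C1qb or C1qc of macrophages were seen in 80 cells (13.8%), and those cells had a median of 5205 UMIs against 3218 in the rest. Scrublet, a program that scores likely doublets, called 64 of the 580 cells (11.0%) against 4.82% of all assigned cells. Its own score threshold gave 2 calls in the SCC31 library and 0 in the SCC37 library. It was replaced there by 0.261, the median of the other libraries, which gave 79 and 449 calls. All 13 macrophage genes listed were found in at least 1% of the mature cells. Their pooled sum was 3486 CPM against 16450 CPM in cells cut as C1q macrophages, and that of the 9 monocyte genes was 1007 CPM. Summed over the macrophage genes, the tumours' mature cells ranged from 1357 to 6463 CPM at day 6, from 960 to 5910 at day 10 and from 131 to 6841 at day 16. Their part in the results below was not tested beyond leaving out the called doublets.

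To place the mature cells among their neighbours, 3 other classes were cut from the same counts: 138 Cd209a dendritic cells (at least 2 Cd209a UMIs), 78 Xcr1 Clec9a dendritic cells (at least 2 UMIs of those genes) and 4863 macrophages (at least 3 UMIs of the C1q genes). Because the rules chose these classes, the values that follow are a description with no test. Median depths were 3498 UMIs in Cd209a cells, 5326.5 in Xcr1 Clec9a cells, 2961 in macrophages and 4935 in the 36170 other cells with no Ptprc UMI. Free RNA can give UMIs of genes a cell does not express, but the last class is not a measure of it alone. Ptprc had a UMI in only 302 of the 580 mature cells, so cells with no Ptprc UMI can include leukocytes. Cells of this class may also express the genes themselves. The part of free RNA in its values was not tested.

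Co-stimulatory and inhibitory genes were both frequent in the mature cells. Cd40, the receptor through which helper T cells license dendritic cells, was detected in 58.4% of them against 30.4% of Cd209a cells and 1.55% of cells with no Ptprc UMI. Cd86 was detected in 46.9% against 31.9% and Cd80 in 33.4% against 19.6%, and these encode the ligands of the T cell receptor CD28. At least 1 of Cd40, Cd80 and Cd86 was found in 457 cells (78.8%) and all 3 in 79 (13.6%). Cd274 was detected in 65% against 34.8% of Cd209a cells and 12.1% of cells with no Ptprc UMI, and Pdcd1lg2, the second ligand of PD-1, in 32.8% against 18.1%. Cd200, which signals to an inhibitory receptor on myeloid cells, was found in 41.2% against 1.45%. Cd274 and Cd40 occurred together in 233 cells (40.2%), which was not compared with chance. Ido1 was found in 0.345% and Aldh1a2, the retinoic acid enzyme of gut-derived dendritic cells, in 2.93%.

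Among secreted factors, Ccl5, a chemokine for T cells, was detected in 60.2% of mature cells against 18.1% of Cd209a cells, but also in 26.8% of cells with no Ptprc UMI. Cxcl16 was found in 72.9% and Cxcl9, an attractant of Cxcr3 T cells, in 54.1%. Il12b, the p40 subunit of interleukin 12, was detected in 20.5% of mature cells, against 0.725% of Cd209a cells, 3.85% of Xcr1 Clec9a cells, 0.946% of macrophages and 0.155% of cells with no Ptprc UMI. Il12a, the partner subunit of interleukin 12, had no UMI in any of the 580 cells, which allows a share of cells with a UMI of up to 0.517%, and Il23a was found in 0.345%. Il15ra, which presents interleukin 15 to T and NK cells, was detected in 19.1% against 0.725% of Cd209a cells. Ccl19, a ligand of Ccr7, was listed at 0 in every mature cell. Its symbol occurs more than once in the gene list, and reads may have been lost between the copies, so this 0 does not show absence. Il10 was found in 0.172%.

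**Figure D1:**
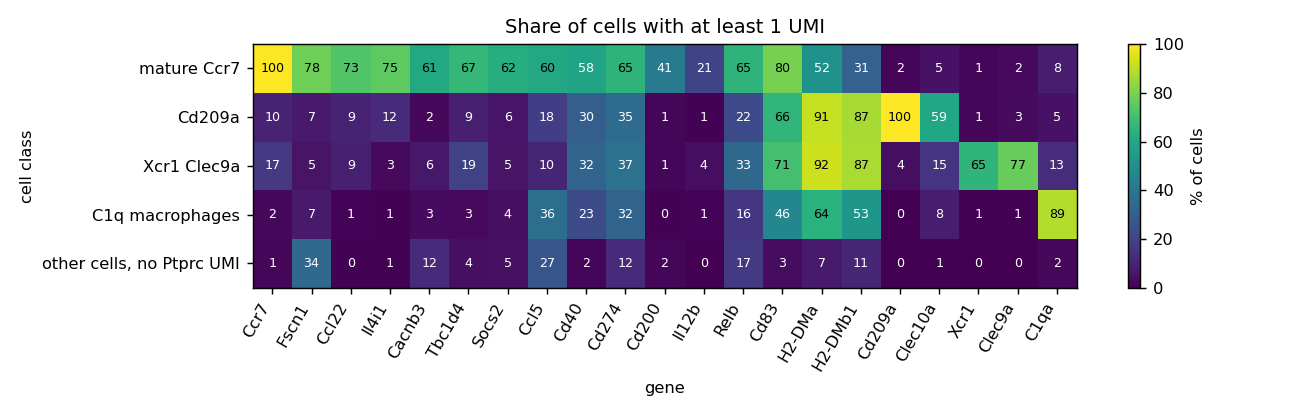
Share of cells with at least 1 UMI of each gene (columns) in each cell class (rows), in percent of the cells of the class; colour and printed number show the same value. Ccr7, Fscn1, Ccl22, Il4i1 and H2-Ab1 chose the top row; outside the rule, Cacnb3, Tbc1d4, Socs2, Cd200 and Il12b stand at 60.9%, 66.6%, 62.4%, 41.2% and 20.5% there against at most 8.70% in the Cd209a row.

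Antigen presentation was split. The classical class II genes H2-Aa and H2-Eb1 and the invariant chain Cd74 were found in 98.3%, 96.9% and 99.3% of mature cells. H2-DMa and H2-DMb1, which load peptide on class II in the endosome, were detected in 51.6% and 31.4% against 91.3% and 87% of Cd209a cells. Ciita, the class II transactivator, was detected in 22.9% against 43.5%. Single receptors for uptake differed in both directions. Fcgr1 was found in 8.62% against 29%, Tlr2 in 12.1% against 24.6%, and Clec10a, which is also a marker of the Cd209a lineage, in 5% against 59.4%. Ly75 (DEC-205), an endocytic receptor, was found in 33.1% against 0.725% and Axl, a receptor for dying cells, in 31% against 18.8%.

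The regulators of the lineages were mixed. Irf8 was found in 71.6% of mature cells against 33.3% of Cd209a and 83.3% of Xcr1 Clec9a cells, Batf3 in 37.4% against 10.1% and 48.7%, and Irf4 in 8.62% against 16.7% and 3.85%. Etv3 was detected in 79% and Nr4a3 in 70.9%, against 50% and 36.2% of Cd209a cells. Of the surface genes of the lineages, Xcr1 or Clec9a was found in 19 mature cells (3.28%), Cd209a, Clec10a or Mgl2 in 79 (13.6%), and 7 cells had genes of both sets when Cd8a was counted with the former. Of genes that govern survival, Bcl2a1b was found in 90.3% and Cflar in 57.1% against 46.4% and 27.5% of Cd209a cells, Mcl1 in 75.7% against 73.2% and Bcl2 in 5.69% against 18.1%. Mki67 was found in 13.3% of mature cells and in 21.3% of cells with no Ptprc UMI. Mature cells with an Mki67 UMI had a median of 6467 UMIs against 3219 in those without, and the part of depth and doublets was not tested.

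Summed per tumour, only 3 tumours gave at least 10 Cd209a cells, all from day 6, against 24 with at least 10 mature cells, and none gave 10 Xcr1 Clec9a cells. Over these, mean Fscn1 was 1283 ± 563 CPM in mature cells (SD, n = 24) and 19.5 ± 21.6 in Cd209a cells (n = 3), a 65.7-fold ratio, and mean Ccr7 was 2424 ± 954 against 72.5 ± 87.7 CPM, a 33.4-fold ratio, both fixed by the choice. Outside the rule, Ccl5 was 15.5-fold, Tbc1d4 12.3-fold, Serpinb9, an inhibitor of granzyme B, 11.8-fold and Samsn1 9.98-fold higher in the mature cells. Il12b and Cacnb3 had no UMI in the Cd209a sums. Against the 3 counts that a count of 0 allows over the 162639 UMIs of those sums (18.4 CPM), Il12b was at least 19.7-fold higher and Cacnb3 at least 18.2-fold higher. Within the 3 tumours that gave both classes, the mature cells had a mean of 125 CPM of Il12b and 279 CPM of Cacnb3, so the Il12b ratio rests in part on tumours with no Cd209a sum. The same holds for Ccl5, with 1360 CPM in those 3 tumours against 2097 over all 24. Tbc1d4 had 426 against 544 CPM, Serpinb9 397 against 447 and Samsn1 429 against 538. Fabp5, a fatty acid carrier, reached 2420 ± 1267 CPM, 6.86-fold above Cd209a cells. At the other end, Cd209a itself, Ecrg4, Cd209d, Clec10a, Cd7 and Mgl2 were among the genes with the lowest ratios to Cd209a cells.

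The question of time was asked first of the cells' number. Mature cells made up a smaller share of tumour cells at the last day of a line than at day 6 in all 5 lines. The mean difference over lines was -1.65 percentage points (stratified exact permutation test over tumours, two-sided, p = 5.556e-05 over 72000 arrangements, adjusted p = 0.0002778 over 5 tests of days). At day 10 the difference from day 6 was -1.27 points (p = 0.001389, adjusted p = 0.002315, exact permutation, lower in 5 of 5 lines). Over all lines the share ranged from 1.33% to 4.94% at day 6 (median 2.15%, 13 tumours), from 0.351% to 3.55% at day 10 (median 0.905%, 12 tumours), from 0.102% to 1.96% at day 16 (median 0.575%, 8 tumours) and from 0.046% to 0.534% at day 20 (median 0.377%, 7 tumours).

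In SCC32 the 2 tumours of day 6 held 1.96% and 2.54% mature cells, those of day 10 0.56% and 0.351%, those of day 16 0.944% and 0.486%, and those of day 20 0.384% and 0.534%. Day 6 lay above every later tumour of the line. In SCC35 the 3 tumours of day 6 held 1.33%, 1.45% and 2.15%, those of day 10 0.62%, 0.658% and 0.711%, those of day 16 0.102% and 0.211%, and those of day 20 0.046%, 0.146% and 0.295%. No 2 neighbouring days overlapped there except days 16 and 20. In SCC37 the tumours of day 6 held 3.87% and 1.63% and those of day 10 1.46% and 3.06%, which overlapped, while day 16 had 0.665% and 0.317% and day 20 0.507% and 0.377%.

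Of the lines listed as rejected, SCC31 had the highest shares, 4.6%, 3.95% and 4.94% at day 6 and 3.55% and 1.96% at day 10. Its first 2 tumours of day 6 and its first of day 10 rest on 87, 76 and 169 cells, so their exact 95% binomial intervals were wide (1.27% to 11.4%, 0.822% to 11.1% and 1.31% to 7.57%). SCC40 had 2.09%, 1.63% and 3.27% at day 6, 1.12%, 0.954% and 0.856% at day 10, and 0.861% and 1.96% at day 16. Day 16 tumour 2 lay above day 6 tumour 2, so SCC40 was the line whose first and last days overlapped. Intervals on shares cover counting error only.

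**Figure D2:**
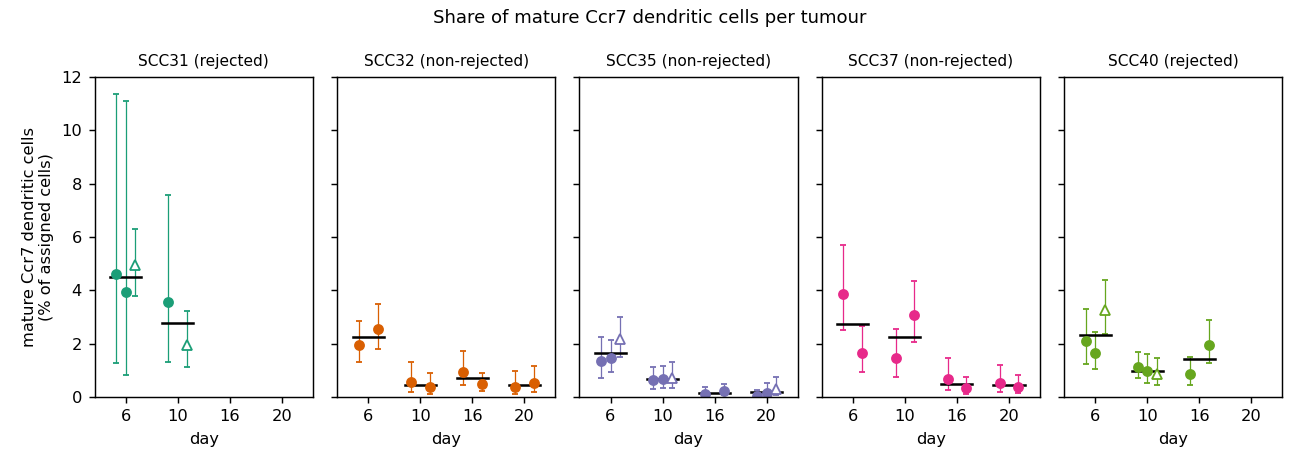
Share of mature Ccr7 dendritic cells (percent of assigned cells, vertical axis) in each tumour by day (horizontal axis), 1 panel per line; filled circles are tumours of the line's own library, open triangles tumours of the mix library, whiskers exact 95% binomial intervals and black bars means over tumours. The last day lies below day 6 in every panel, and in SCC40 the points of those days overlap.

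The share depends on what it is counted against. Ptprc, the pan-leukocyte gene, had a UMI in only 302 of the 580 mature cells, from 48.6% of them at day 6 to 66.2% at day 16, and their median depth moved with it, from 3042 to 6946 UMIs. Counted among cells with a Ptprc UMI, the difference of the last day from day 6 was -1.71 points (p = 0.08747, exact permutation, not past 0.05). It was lower in 4 of 5 lines, but SCC40 was level, with means of 4.396% and 4.395%, and SCC31 rose from 4.23% to 4.93%. SCC32 fell from 4.11% to 1.255%, SCC35 from 4.4% to 0.682% and SCC37 from 3.63% to 0.95%. Counted among mature cells and all other cells with a Ptprc UMI, the difference was -5.58 points, lower in 5 of 5 lines (p = 0.0001528, adjusted p = 0.0003819, exact permutation). This count does not treat cells alike: a mature cell needed no Ptprc UMI, whereas every other cell did. It therefore shifts with the detection of Ptprc, which moved with day. By that count the mean of SCC31 tumours was 13.5% at day 6 and 7.8% at the last day. The same means were 6% and 1.79% for SCC32, 8.93% and 1.26% for SCC35, 8.03% and 1.98% for SCC37, and 10.4% and 6.2% for SCC40. A share of captured cells does not tell fewer mature cells from more of other cells.

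Each cell was also thinned to 1500 UMIs before the rule was applied, which left out 83 of the mature cells as too shallow. The last day then still lay below day 6, while the difference at day 10 was -0.995 points with p = 0.0695 (exact permutation) and no longer passed. The place of the mature cells among dendritic cells was less clear. Of the cells in the 3 dendritic classes, mature cells made up between 63.9% (SCC35) and 87% (SCC37) at day 6 as a mean of tumours with at least 5 such cells. At the last day the means lay between 56.7% (SCC35) and 75.5% (SCC31), lower in 4 of 5 lines by a mean over lines of -13.2 points (p = 0.06269, exact permutation, not past 0.05). Without SCC31 the difference was -16.8 points (exact permutation, p = 0.03861).

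Between the 5 lines the share of mature cells did not pass the threshold after adjustment. At day 6 the line means ran from 1.64% ± 0.446 (SCC35, SD, n = 3) through 2.25% ± 0.41 (SCC32, n = 2), 2.33% ± 0.846 (SCC40, n = 3) and 2.75% ± 1.58 (SCC37, n = 2) to 4.49% ± 0.503 (SCC31, n = 3), and only SCC31 stood clear of the tumours of every other line. The exact permutation test gave p = 0.02703 and an adjusted p of 0.05407 over the 2 days. At day 10 the means ran from 0.456% (SCC32) to 2.75% (SCC31), with p = 0.05455 (exact permutation). With lines as units, the 2 rejected lines exceeded the 3 non-rejected ones by 1.196 points at day 6 (p = 0.3) and by 0.74 points at day 10 (p = 0.5), and the smallest p that 10 exact permutations allow is 0.1. The range of line means at day 6 was 2.85 points, but 1.11 points without SCC31 (p = 0.5913, exact permutation) and 0.774 points when counted among cells with a Ptprc UMI (p = 0.9705, exact permutation).

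The genes within the mature cells were compared on UMI counts summed per tumour, over the 24 tumours with at least 10 mature cells: 11 of day 6, 9 of day 10 and 4 of day 16. The day 16 tumours came from SCC32 and SCC40 only, none of day 20 had enough cells, and SCC31 entered through the mix library alone. Values per tumour below are CPM scaled by edgeR's TMM factors, which set the total of each tumour's mature cells to a common scale. 1 model with line and day was fitted to 2062 genes, of which 2057 were not used by the rule and were tested.

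No gene passed between days. At day 10 against day 6, edgeR called 0 of 2057 genes (0%) at an adjusted p under 0.05, with 237 genes at an unadjusted p under 0.05, and the smallest adjusted p was 0.2212. At day 16 against day 6 it called 0 of 2057 (0%), with 226 at an unadjusted p under 0.05 and a smallest adjusted p of 0.0945. DESeq2, run as an alternative, called 44 genes (2.14%) at day 10, 42 higher and 2 lower, and 52 (2.53%) at day 16, 46 higher and 6 lower. Most of these were ribosomal protein genes, 34 of 44 and 39 of 52, and every one of these ribosomal genes was higher at the later day. Depth per cell moved with day in some lines. In SCC40 its median was 3288 UMIs at day 6, 5134 at day 10 and 7134 at day 16, and in SCC32 it was 3417, 4172 and 5702. From day 6 to day 10 it went from 2467 to 3390 UMIs in SCC35, from 2218 to 2371 in SCC37 and from 3042 to 2574 in SCC31, and its part in these changes was not tested. The 2 lower genes at day 10 were Tagln2, an actin-binding protein, and Psmb9, a subunit of the immunoproteasome. At day 16 the lower genes by DESeq2 were Tagln2, Nfkb1, Cxcl10, Irf1, Ifi27l2a and Cd274.

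Cd274 (PD-L1) was among the genes that DESeq2 alone called at day 16. Its level at day 6 had a median of 461 CPM over 11 tumours (179 to 718), at day 10 of 226 CPM over 9 (150 to 455), and at day 16 the 4 tumours had 212 and 137 CPM in SCC32 and 402 and 233 CPM in SCC40. The groups overlapped, but in SCC32 both day 6 tumours (676 and 681 CPM) and in SCC40 all 3 (444, 489 and 718 CPM) lay above the day 16 tumours of the line. The fitted log2 change at day 16 was -1.14 ± 0.357 (SE, edgeR adjusted p = 0.2016) and at day 10 -0.68 ± 0.269 (edgeR adjusted p = 0.372). The log2 change by DESeq2 at day 16 was -1.13.

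Cd80 also had negative fitted changes and did not pass. Its median was 193 CPM at day 6 (25.3 to 294), 80.5 CPM at day 10 (16.2 to 195) and 91.2 CPM at day 16 (45.3 to 117), with fitted log2 changes of -0.99 and -1.39 (edgeR adjusted p = 0.3779 and 0.3422). Cd86, the other CD28 ligand, had medians of 244, 215 and 166 CPM, and Cd40 439, 278 and 325 CPM, with wide overlap between days. Cd200 had medians of 256, 134 and 104 CPM and Pdcd1lg2 of 154, 101 and 104 CPM. Among these 4 genes the smallest edgeR adjusted p at either day was 0.4904 (Cd200, day 16).

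Il12b had the opposite sign. At day 6 its median was 323 CPM (0 to 548), at day 10 485 CPM (28.4 to 1531), and at day 16 the tumours had 445 and 58.5 CPM in SCC32 and 1491 and 892 CPM in SCC40. In SCC40 the day 6 tumours had 91.9, 100 and 351 CPM and those of day 10 534, 715 and 150 CPM, so every day 16 tumour of that line lay above every earlier one, whereas SCC32 gave no such order (411 and 264 CPM at day 6). The fitted log2 change at day 16 was 1.52 ± 0.702 (edgeR adjusted p = 0.417). The UMIs came from few cells: 8 of 63 SCC32 cells at day 6, 5 of 20 at day 16 and 5 of 10 at day 20, and in SCC40 9 of 84, 18 of 50 and 12 of 36 at days 6, 10 and 16. Mature cells with an Il12b UMI were deeper, with a median of 4782 UMIs against 3129 in those without.

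The chemokines Ccl5, Cxcl9 and Cxcl16 and the NF-kB subunit Relb overlapped between days. Ccl5 had medians of 2282, 2533 and 2539 CPM at days 6, 10 and 16, Cxcl9 1015, 752 and 709 CPM, Cxcl16 523, 572 and 762 CPM and Relb 385, 309 and 273 CPM. Il15 and Fas were too low for the fit and were found in 14.1% and 18.1% of the mature cells.

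**Figure D3:**
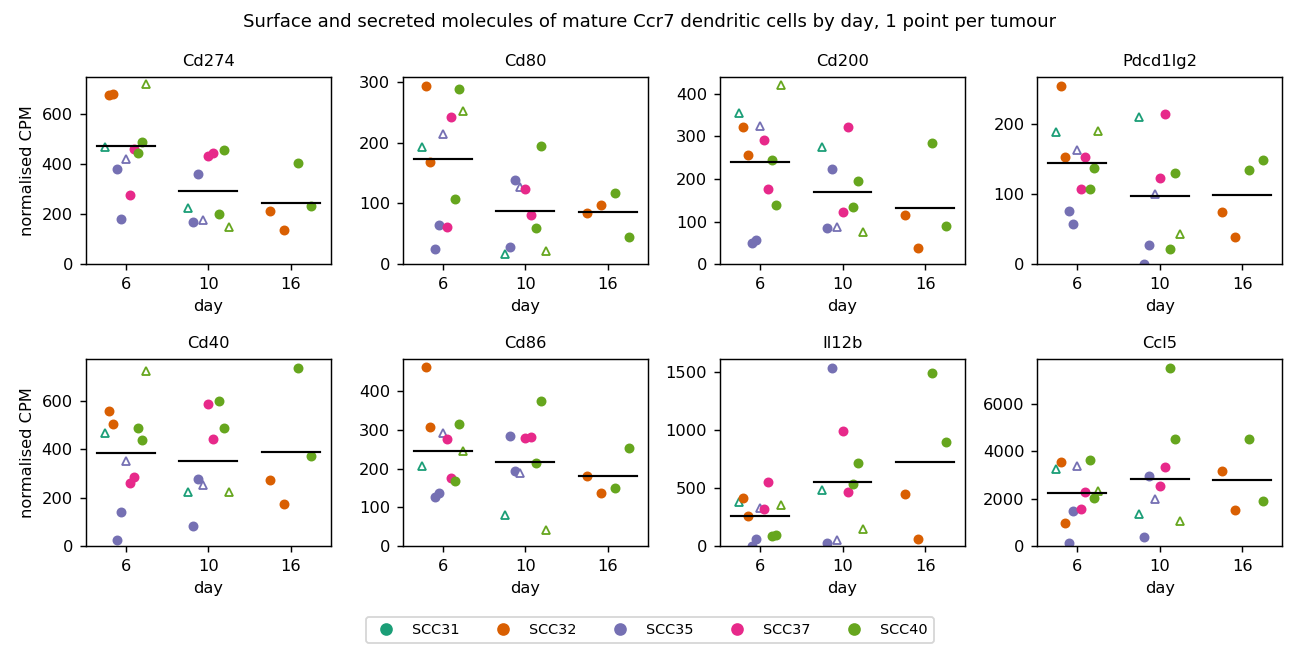
Levels (normalised CPM, vertical axis from 0) of 8 surface or secreted molecules in the mature cells of each tumour at days 6, 10 and 16; colour gives the line, open triangles are tumours of the mix library and black bars are means. The days overlap in every panel; Cd274 has means of 472, 291 and 246 CPM and Il12b of 260, 550 and 722 CPM.

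Gene lists were described by their medians beside all genes tested, whose median log2 change was -0.01 at day 10 and -0.04 at day 16, with 1056 and 1098 of 2057 negative. Of the 24 tested markers of mature dendritic cells outside the rule, none passed at either day, 17 had a negative fitted change at each, and the median was -0.18 at day 10 and -0.32 at day 16. Of 16 tested genes of the NF-kB pathway, which drives maturation, none passed, 11 had a negative change at day 10 (median -0.19) and 15 at day 16 (median -0.54). Of 12 tested genes of glycolysis and hypoxia, 0 had a negative change at day 10 (median 0.29) and 5 at day 16 (median 0.15). The 16 tested genes of the interferon-gamma response had medians of -0.30 and -0.68 with 13 and 14 negative, and 5 reached an unadjusted p under 0.05 at each day. The 10 inhibitory genes had medians of -0.44 and -0.58, and the 7 co-stimulatory genes -0.35 and -0.51. The 12 genes of MHC class I presentation had a median of -0.24 at day 10 with 11 negative, and the 11 of class II had 0.01 and 0.17. Chemokines (9 tested) had a median of 0.03 at day 10 and -0.51 at day 16. The 82 ribosomal protein genes, added after their calls were seen, had medians of 0.36 and 0.54, and 59 had an unadjusted p under 0.05 at each day. The lists with fewest genes in the fit were pattern and uptake receptors, with 3 of 24, and cytokines, with 4 of 18.

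**Figure D4:**
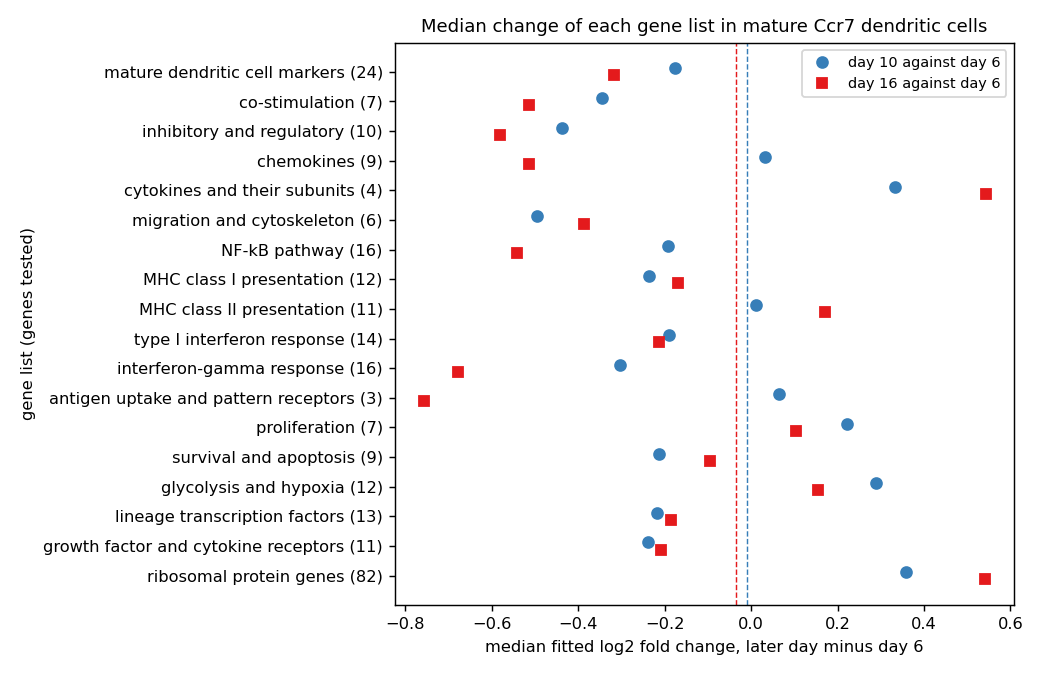
Median fitted log2 change of the tested genes of each list in mature cells at day 10 (blue circles) and day 16 (red squares) against day 6; dashed lines give the medians of all 2057 genes tested, -0.01 and -0.04. Ribosomal protein genes lie to the right at 0.36 and 0.54 and the interferon-gamma response to the left at -0.30 and -0.68, with no gene of any list past the edgeR threshold.

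Whether time acted on the mature cells apart from other myeloid cells was asked by testing the difference of the changes within tumours. It could not be fitted against Cd209a cells at 10 cells a tumour, since no tumour after day 6 had enough of them. With 5 cells a tumour (10 tumours, 1263 genes), edgeR called 0 genes at either day, with 95 and 78 at an unadjusted p under 0.05. Against C1q macrophages, a comparison added later, it called 0 of 3897 genes (0%) at day 10, with 228 at an unadjusted p under 0.05, and 4 of 3897 (0.103%) at day 16, with 317. Those 4 were Rogdi, Procr, Bcl2a1d and Bcl2a1b. Procr encodes the endothelial protein C receptor, and Bcl2a1b and Bcl2a1d are near-identical anti-apoptotic genes whose reads may have been divided between copies. In the mature cells their means were similar at day 6 and day 16: Procr had 138 ± 80.1 CPM (SD, n = 11) and 114 ± 48.7 (n = 4), Rogdi 245 ± 92.9 and 241 ± 110, and Bcl2a1b 1765 ± 634 and 2141 ± 958. In macrophages of the same tumours, Bcl2a1b had 276 ± 76.3 CPM at day 6 and 888 ± 209 at day 16. The day 6 means cover all 5 lines and the day 16 means SCC32 and SCC40 only. A class difference that varies by line was not in the fit, so it is not separated from the change between days.

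Between lines the mature cells differed in 112 of 2057 genes (5.44%, edgeR F test of the line terms, adjusted p under 0.05), with 530 at an unadjusted p under 0.05, and DESeq2 called 266 (12.9%). The line with the highest mean was SCC35 for 30 of the 112, SCC40 for 27, SCC32 for 24, SCC37 for 22 and SCC31 for 9. The count depended on single tumours and settings: it was 0 of 4220 with at least 20 cells a tumour (edgeR, 335 at an unadjusted p under 0.05), 15 with at least 2 Ccr7 UMIs, 34 without Scrublet calls, 488 without the mix library, 157 without SCC31, and 39 without SCC32 day 16 tumour 1. The fit at 20 cells a tumour kept only part of the 24 tumours. A call lost there cannot be told apart from the loss of tumours.

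Other cells of the same tumours often had the same highest line, but less often the same highest and lowest line. Both matched for 50 of the 112 genes in C1q macrophages and for 47 in cells with no Ptprc UMI. For 87 of the 112 genes the line highest in mature cells was also highest in C1q macrophages, for 78 it was highest in cells with no Ptprc UMI, and for 16 in neither. Of the 112, 11 were ribosomal and 9 mitochondrial, and 24 had a pooled level over 2 times higher in cells with no Ptprc UMI than in mature cells. Gm42418, which overlaps ribosomal RNA sequence, reached 88030 CPM in SCC37 against 23540 to 39190 in the other lines, and mt-Atp6 4464 against 1361 to 2503 CPM. In macrophages these 2 genes were also highest in SCC37. Col1a1, a collagen of fibroblasts, had 422 CPM in SCC32 against 8.01 to 114 in the others, and was 1012 CPM in SCC32 cells with no Ptprc UMI. Col4a1, a basement membrane collagen, and Gstm1, a glutathione transferase, were also highest in SCC32 (352 against 15.5 to 93.8 CPM, and 276 against 42.6 to 77.7), S100a11 and the esterase Esd in SCC35 (4833 against 2286 to 2990 CPM, and 468 against 105 to 265), Rpl10-ps3 in SCC40 and mt-Nd4 in SCC37. All of these lost their calls with at least 20 cells a tumour, Col1a1, Esd and S100a11 also without Scrublet calls, and Col4a1, Gstm1, Esd and S100a11 also with at least 2 Ccr7 UMIs. The part of free RNA and of library in these differences was not tested.

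Ccl17 was called on the chemokine list, and it was scarce outside the dendritic cells. It was found in 23.3% of mature cells, 13.8% of Cd209a cells, 0.74% of macrophages and 0.428% of cells with no Ptprc UMI. The 2 SCC31 tumours had 682 CPM at day 6 and 1455 at day 10. SCC37 ranged from 15.4 and 1974 CPM at day 6 to 1668 and 188 CPM at day 10, and SCC32 from 470 and 484 CPM at day 6 to 180 and 176 CPM at day 16. SCC40 had 138, 75.2 and 741 CPM at day 6, 7.42, 16.2 and 64.2 CPM at day 10, and 16.8 and 330 CPM at day 16. SCC35 had 75.8, 14.3 and 205 CPM at day 6 and was listed at 0 in all 3 tumours of day 10. SCC35 was thus the low line, with a mean of 49.3 CPM against 174 to 1068 in the others, and SCC37 and SCC40 spread more within the line than between neighbouring lines (edgeR adjusted p = 0.0367).

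SCC31 was also the highest and SCC35 the lowest line by the share of cells, while SCC32 and SCC37 changed places: Ccl17 was found in 39 of 88 mature cells of SCC31 (44.3%), 27 of 102 of SCC32 (26.5%), 22 of 102 of SCC37 (21.6%), 34 of 170 of SCC40 (20%) and 13 of 118 of SCC35 (11%). Within the mix library, which holds 3 lines at equal days, SCC31 had 682 and 1455 CPM, SCC40 741 and 64.2, and SCC35 205 and 0 CPM at days 6 and 10. The call was kept in 6 of 9 alternative settings and without 14 of 24 tumours in turn. It was lost with at least 2 Ccr7 UMIs, without Scrublet calls and with at least 20 cells a tumour, where the adjusted p reached 0.833.

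Ccl17 lies near Ccl22, the gene of the rule that encodes the other Ccr4 ligand, on chromosome 8. Ccl22 is a rule gene and was not tested, and its tumour values ran from 253 CPM (SCC35 day 6 tumour 1) to 4725 CPM (SCC37 day 10 tumour 1). Ccl17 was found together with Ccl22 in 127 of the 135 cells that had it. Because Ccl22 helped to choose the cells, it was found in 423 of all 580 (72.9%), and the overlap was not compared with chance. The windows before the starts of both genes are shown to compare the neighbours, 150 bases each on the plus strand from RefSeq (GRCm38.p6), at chr8:94745534-94745683 for Ccl22 and chr8:94810303-94810452 for Ccl17, with capitals for matches on either strand to a loose form of the kappaB site, GGG and CC with any 5 bases between them.
Ccl22: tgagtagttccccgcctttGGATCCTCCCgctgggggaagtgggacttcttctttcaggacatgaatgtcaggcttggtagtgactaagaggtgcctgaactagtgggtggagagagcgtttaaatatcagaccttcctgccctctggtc
Ccl17: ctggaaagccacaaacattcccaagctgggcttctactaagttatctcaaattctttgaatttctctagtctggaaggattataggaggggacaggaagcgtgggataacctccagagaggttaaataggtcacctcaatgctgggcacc
In the 250 bases before the start, Ccl22 had 2 matches, 1 of them in the window shown, and Ccl17 had 0. The letters occurred in 45.8% of the 32851 promoters in the table and in 13 of the 20 markers of mature dendritic cells that could be matched out of 30, overlapping matches included. A match is a run of letters and was not tested for binding.

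Il1r2, a decoy receptor that binds interleukin 1 without signalling, was highest in SCC35. The 6 SCC35 tumours had 179 to 529 CPM. SCC37 had 21.9 to 93.9 CPM in 4 tumours, SCC31 71.8 and 0 CPM, and SCC32 88.1 and 80.6 CPM at day 6 with 10.6 and 507 CPM at day 16. In SCC40 Il1r2 had 0, 75.2 and 7.64 CPM at day 6, 44.5, 162 and 0 CPM at day 10 and 285 and 356 CPM at day 16, so the late tumours of SCC40 overlapped SCC35 (edgeR adjusted p = 0.0379, kept in 7 of 9 settings and without 10 of 24 tumours in turn). In the mix library SCC35 had 325 and 328 CPM against at most 71.8 CPM in SCC31 and SCC40. In macrophages the highest mean was in SCC40, with 187 CPM against 111 in SCC35.

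Ifitm1, an interferon-induced membrane protein, had the smallest p of all. It is also listed among the markers of Cd209a dendritic cells. SCC35 tumours had 2806, 386 and 2208 CPM at day 6 and 1644, 1281 and 1817 CPM at day 10, a mean of 1690 CPM. The line means elsewhere were 93.8 to 276 CPM (edgeR adjusted p = 0.0005373), and 3 single tumours outside SCC35 lay above 386 CPM at day 16: SCC32 tumour 2 with 800 and SCC40 with 637 and 964 CPM, besides SCC31 day 6 tumour 3 with 552 CPM. The call was kept without each of the 24 tumours in turn and in 8 of 9 settings. Ifitm1 was also highest in SCC35 macrophages, at 263 CPM against 14.8 to 113. Against day 6 the fitted log2 change at day 16 was 3.21 (edgeR adjusted p = 0.0945). DESeq2 called Ifitm1 at day 16, with a log2 change of 3.29 (DESeq2 adjusted p = 0.0134). The day 6 tumours of SCC32 and SCC40, the lines with day 16 tumours, had 30.6 to 95.2 CPM.

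Of the interferon-response genes on the lists, 5 were called between lines, 4 of them with the highest mean in SCC32. Irf1, a transcription factor induced by interferon-gamma, had 852 and 1018 CPM at day 6 and 541 and 390 CPM at day 16 in SCC32, a mean of 700 CPM against 268 to 438 in the other lines (edgeR adjusted p = 0.00999). Cxcl10, the other Cxcr3 attractant, had a mean of 1598 CPM in SCC32 against 473 to 636 (adjusted p = 0.0417), Gbp4, a guanylate-binding protein, 216 against 58.5 to 96 (adjusted p = 0.046) and Ifit3 410 against 12.6 in SCC31, the lowest line, and 203 in SCC37, the next (adjusted p = 0.0291). Oasl2 was highest in SCC37 with 299 CPM, next to 284 CPM in SCC32 and 85.7 to 152 elsewhere (adjusted p = 0.0371). Ifitm1, described above, was highest in SCC35. On the lists these were 3 of 16 tested genes of the interferon-gamma response (Irf1, Cxcl10 and Gbp4) and 2 of 14 of the type I response (Ifit3 and Oasl2), beside 5.44% of all genes. Cells with no Ptprc UMI also had their highest Irf1, Cxcl10, Gbp4 and Ifit3 means in SCC32, so that place of SCC32 was not found in mature cells alone. These calls depended on settings. Irf1 was kept in 6 of 9 settings and without 23 of 24 tumours in turn, Ifit3 in 7 of 9 and without 22 of 24, Cxcl10 in 5 of 9 and without 9 of 24, Oasl2 in 5 of 9 and without 14 of 24, and Gbp4 in 2 of 7 and without 6 of 21. All 5 were lost with at least 20 cells a tumour, Ifit3 was also lost without SCC31, the other 4 were lost with at least 2 Ccr7 UMIs and without Scrublet calls, and Oasl2 and Gbp4 also with a term for the mix library in the model. Markers of other cells moved with the line: the 13 macrophage genes summed to 3207 to 6841 CPM in the mature cells of SCC32 tumours, against 960 to 1749 in SCC31, 1862 to 3050 in SCC37, 1933 to 6463 in SCC35 and 131 to 5986 in SCC40. The 9 monocyte genes summed to 1146 to 2456 CPM and the 8 fibroblast genes to 458 to 880 CPM in SCC32, and their part in these differences was not tested. SCC32 has no tumour in the mix library, and its library cannot be told apart from the line.

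The glycolytic genes Pkm and Ldha were called with SCC35 highest. Ldha, which makes lactate, had 1061 to 1817 CPM in the 6 SCC35 tumours, a mean of 1503 against 621 to 886 in the other lines (edgeR adjusted p = 0.0298), and Pkm had a mean of 1556 against 668 to 1142 CPM (adjusted p = 0.0229). They were 2 of 12 tested genes of glycolysis and hypoxia, beside 5.44% of all genes. Ldha lost its call with at least 2 Ccr7 UMIs and with at least 20 cells a tumour (adjusted p up to 0.598), and Pkm under both and without Scrublet calls (adjusted p up to 0.7327). In cells with no Ptprc UMI the SCC35 means of Ldha and Pkm were 1968 and 2082 CPM, also the highest of the 5 lines. In the mix library Ldha was 1061 and 1817 CPM in SCC35 against 498 and 808 in SCC31 and 435 and 1316 in SCC40 at days 6 and 10.

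Between lines no gene was called on the co-stimulatory (7 tested), inhibitory (10), migration (6) or NF-kB (16) lists. The same held for the MHC class I (12), MHC class II (11), survival (9) and lineage factor (13) lists. Over all 2057 genes 5.44% were called, and each list is too short for 0 calls to set it apart from that share. Of the 12 class I genes, 9 had an unadjusted p under 0.05 (edgeR), beside 530 of all 2057 genes. The line means of Cd274 lay between 281 CPM (SCC35) and 426 CPM (SCC32), those of Cd80 between 99.6 and 161 CPM, and those of Il12b between 295 and 582 CPM. Cd40 was lowest in SCC35 with 189 CPM and highest in SCC40 with 510 CPM, with an edgeR adjusted p of 0.117.

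**Figure D5:**
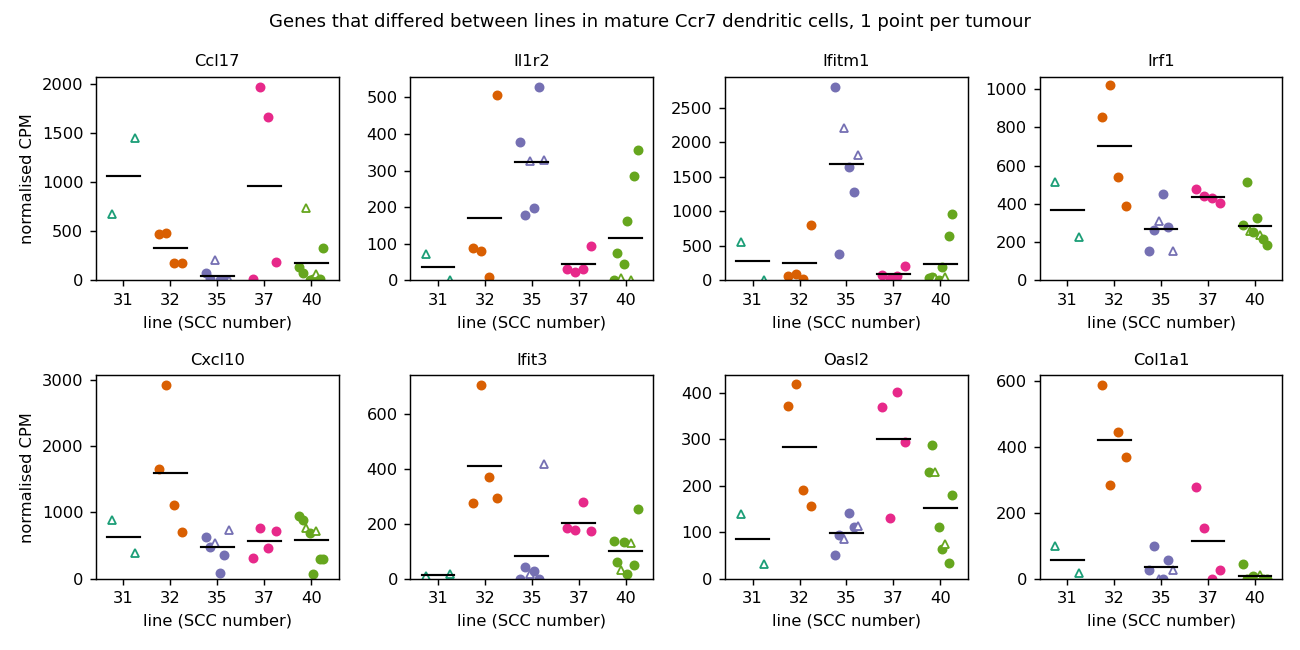
Levels (normalised CPM, vertical axis from 0) of 8 genes that differed between lines, in the mature cells of each tumour (points) by line (number after SCC on the horizontal axis); open triangles are tumours of the mix library and black bars are means over tumours. Ccl17 is lowest and Ifitm1 and Il1r2 are highest in SCC35 by their means, and Irf1, Cxcl10, Ifit3 and Col1a1 are highest in SCC32.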

How the data were processed

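The counts of the 6 libraries were deposited by the authors as raw UMI counts per gene and barcode, with 10 hashtags beside them, and the file headers name Cell Ranger 6.0.0 as their source; the build mm10 is named in the submitters' processing notes. Cells with at least 300 genes, at most 15% mitochondrial counts, and a leading hashtag with at least 10 counts and 2 times the next were kept, and the authors' sample table gave line, outcome and day. Doublets were otherwise left in, and Scrublet (scanpy 1.11.5, expected rate 0.08) served as an alternative. The members and the gene lists were chosen with earlier results of these data known.

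Shares per tumour (at least 20 assigned cells) were compared with exact permutation tests in scipy 1.17.1. UMI counts summed per tumour (at least 10 mature cells) were fitted with edgeR 4.0.16 in R 4.3.3 (TMM, default filter on low counts, quasi-likelihood test, line and day as factors, Benjamini-Hochberg adjustment over all genes tested), with DESeq2 1.42.0 as an alternative. Tumours carry mouse numbers, so the spread is between animals. Replicate numbers mark no shared animal or day, except that tumour 3 marks the mix library.

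Named genes were those called on 17 lists of 301 symbols, the 10 of largest change or smallest p among called genes with at least 50 CPM, the 25 highest and 10 lowest ratios to Cd209a cells, and 16 molecules fixed by name. Clec7a, Cxcl11, Marchf1, Mx1 and Mx2 were not matched by symbol, and 38 symbols occur more than once. In simulated counts for day 10 against day 6, 70 of 97 genes changed by 1 on the log2 scale and 90 of 90 changed by 2 were recovered, with 7 false calls among 1881 genes. The simulated counts held no differences between lines, and day 16 was not simulated. With many genes changed at once the adjusted threshold is easier to reach, so these rates do not carry over to the real tests.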

Additional observations from a re-analysis of the deposited data

Results flagged for a closer look

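For 4 genes the change from day 6 to day 16 differed between mature Ccr7 dendritic cells and C1q macrophages of the same tumours, by a test of the difference itself (edgeR, 24 tumours with at least 10 cells of both classes, 0.103% of 3897 genes). Rogdi had a log2 difference of changes of -2.9 (adjusted p = 0.0008718): 245 and 241 CPM at days 6 and 16 in mature cells against 9.85 and 63.9 CPM in macrophages. For Procr it was -2.48 (adjusted p = 0.01462), with 138 and 114 CPM against 14.1 and 54.5 CPM. For Bcl2a1d it was -1.51 (adjusted p = 0.01462), with 1076 and 1382 CPM against 154 and 533 CPM, and for the near-identical Bcl2a1b -1.49 (adjusted p = 0.01462), with 1765 and 2141 CPM against 276 and 888 CPM. Day 16 rests on 4 tumours of SCC32 and SCC40. With either SCC32 day 16 tumour left out 1 gene was called, and without SCC40 day 16 tumour 1 the count was 20. The macrophages were cut by C1q UMIs alone, and a UMI of C1qa, C1qb or C1qc was also seen in 13.8% of the mature cells; its part in these differences was not tested.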

How the results depend on the processing

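The fall of the share from day 6 to the last day passed in 8 of 9 alternatives and without each tumour in turn (-1.872 to -1.423 points). The exception was the share among cells with a Ptprc UMI (-1.711 points, p = 0.08747), and there and with thinning to 1500 UMIs the difference at day 10 also missed the threshold (-1.441 points, p = 0.1466, and -0.9948, p = 0.0695, exact permutation); without single tumours it ran from -1.495 to -1.047. The difference between lines at day 6 (range of line means 2.851 points) passed with the stricter cell filter (3.977), a hashtag ratio of 4 (2.996) and without Scrublet calls (3.174), but not with thinning (3.035, p = 0.3834), without SCC31 (1.107, p = 0.5913) or among cells with a Ptprc UMI (0.7739, p = 0.9705, exact permutation). It passed at day 10 with thinning (1.922), at least 2 Ccr7 UMIs (1.855) and without SCC31 (1.804). Leaving out tumours gave 2.629 to 3.124 and 1.804 to 3.095 points, and the call was then gained without SCC37 day 6 tumour 1 or 2 or SCC40 day 6 tumour 3, and without SCC31 day 10 tumour 3 or SCC37 day 10 tumour 1 or 2. The mature share of dendritic cells passed with the stricter filter (-13.75), at least 2 Ccr7 UMIs (-25.58), without the mix library (-19.97) and without SCC31 (-16.82), and leaving out tumours gave -17.84 to -8.511. It then passed without tumour 3 of SCC31 (day 6), tumour 1 of SCC31 (day 10), tumour 2 of SCC32 (day 20) or tumour 3 of SCC35 (day 20).

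Calls at day 10 numbered 44 with DESeq2, 17 with no filter on low counts and 1 with at least 5 cells a tumour. At day 16 they numbered 52 with DESeq2, 16 with no filter and 2 without Scrublet calls, and with at least 5 cells, where days 16 and 20 enter together, 1; leaving out tumours gave 0 to 2 and 0 to 15, the 15 without SCC35 day 10 tumour 1. Between lines DESeq2 called 266 genes, no filter 376, at least 2 Ccr7 UMIs 15, no Scrublet calls 34, no mix library 488, at least 5 cells 211 and at least 20 cells 0. Leaving out tumours gave 39 (SCC32 day 16 tumour 1) to 241 (SCC35 day 6 tumour 3) between lines, 44 without SCC40 day 10 tumour 1 and 237 without SCC40 day 10 tumour 3. The difference from macrophages gave 49 genes at 5 cells a tumour, where days 16 and 20 enter together, and at day 16 1 to 20 without single tumours, and 0 at day 10 without any of them. The cause of these shifts was not tested. The alternatives planned for the comparison with Cd209a cells were not run except that with 5 cells, because no fit was possible at 10. No paired analysis was possible because replicate numbers mark no animal or day shared between lines or days. Tumour 3 marks the mix library, and a term for it gave 88 genes between lines and 0 at days 10 and 16 (edgeR, 233 and 225 at an unadjusted p under 0.05). The comparison with macrophages was within tumours.

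Depth limits all of this: 24 of 40 tumours reached 10 mature cells, 4 of them after day 10, and low genes such as Il15, Fas and Aldh1a2 could not be fitted.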
